A study of Mus musculus with 20 samples.

Results

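The oligoadenylate synthetase genes are described here in mouse macrophages exposed to fractions of inflamed airway fluid. Members were taken by gene symbol: Oas1a, Oas1g, Oas1c, Oas2, Oas3, Oasl1 and Oasl2, which are 7 of the 78409 entries of the expression table and 7 of the 34373 with a count in at least 1 library. All 7 passed the filter on low counts in every comparison. Transcript levels come from sequencing of the polyadenylated RNA of bone marrow-derived macrophages (BMDMs), grown from wild-type female C57BL/6J mice and treated on day 7 of culture. The study asked how airway fluid, and the Y RNA gene RNY1 of the mice it came from, shape macrophage transcription. Each of 5 groups held 4 libraries. PBS was the vehicle control. The other groups received bronchoalveolar lavage fluid (BALF) of mice with ovalbumin (OVA)-induced airway inflammation, split by size exclusion chromatography into an extracellular vesicle-enriched fraction (EVFx, 35000000 particles per µL) and a protein-enriched fraction (ProteinFx, 0.75 µg of protein per µL). The fluid came from RNY1+/+ or RNY1-/- mice, which gives RNY1+/+ EVFx, RNY1-/- EVFx, RNY1+/+ ProteinFx and RNY1-/- ProteinFx. The genotype is that of the fluid's donors, which in RNY1-/- animals is a CRISPR deletion, and no group holds macrophages that lack RNY1. Per the study's methods, the knockout strain came from GemPharmatech, and other mice were wild-type C57BL/6J of the JAX supplier. A difference between source genotypes may therefore also be a difference of mouse source, and these cannot be told apart here. Doses were matched within a fraction and not between fractions, so a difference between EVFx and ProteinFx is also a difference of dose unit. Per the study's methods, both fractions, of either genotype, had been kept cold for 5 days when the macrophages received them. No such time is given for PBS. What this storage adds to the differences from PBS was not tested. All library names share a prefix, which the labels used here do not name as a batch. Whether libraries of a group stem from separate fluid pools, mice or wells is not given in the sources used here, so p-values measure the spread between these libraries, which may be technical.

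Oligoadenylate synthetases sense double-stranded RNA. On binding it, they join ATP into short oligoadenylates, which act as a second messenger of the antiviral response. Oas1, Oas2 and Oas3 proteins differ in how many copies of the synthetase unit they carry, and mice have a cluster of Oas1 copies. The OAS-like proteins Oasl1 and Oasl2 add ubiquitin-like repeats. The genes are classic targets of interferon, through a promoter sequence called the interferon-stimulated response element (ISRE). Macrophages are among the cells in which the pathway is best known.

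In the RefSeq annotation of GRCm38.p6, all members lie on chromosome 5, with Oasl2 and Oasl1 next to each other and, farther along, Oas2, Oas3 and the Oas1 copies in a row. The RNA reads were aligned to GRCm39, so the positions below are of the reference promoters and not of the measured counts. Promoters were found for 6 of the 7 members. The 200 bases around the annotated start are shown because in 4 of the 6 they hold a known interferon response sequence. Capitals mark overlapping copies of the ISRE repeat GAAANNGAA, in either strand, and N is any base.
Oas3, GRCm38.p6 chr5:120777610-120777809, minus strand: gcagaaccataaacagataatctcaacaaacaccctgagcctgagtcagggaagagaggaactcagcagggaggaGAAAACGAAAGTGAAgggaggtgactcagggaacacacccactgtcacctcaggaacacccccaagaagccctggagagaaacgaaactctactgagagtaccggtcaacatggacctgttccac
Oas1a, GRCm38.p6 chr5:120907476-120907675, minus strand: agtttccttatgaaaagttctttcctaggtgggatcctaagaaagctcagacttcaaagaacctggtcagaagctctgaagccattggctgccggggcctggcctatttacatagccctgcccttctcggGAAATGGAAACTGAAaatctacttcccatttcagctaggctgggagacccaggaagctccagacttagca
Oas1g, GRCm38.p6 chr5:120887564-120887763, minus strand: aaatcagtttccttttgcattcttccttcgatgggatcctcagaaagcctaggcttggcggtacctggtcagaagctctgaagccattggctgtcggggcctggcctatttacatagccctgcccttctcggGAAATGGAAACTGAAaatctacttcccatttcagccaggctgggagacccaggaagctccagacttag
Oas1c, GRCm38.p6 chr5:120812465-120812664, minus strand: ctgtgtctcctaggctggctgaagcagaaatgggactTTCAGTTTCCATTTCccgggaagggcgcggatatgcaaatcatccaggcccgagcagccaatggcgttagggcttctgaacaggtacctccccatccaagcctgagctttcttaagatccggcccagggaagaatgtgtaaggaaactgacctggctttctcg
Oasl1, GRCm38.p6 chr5:114923090-114923289, plus strand: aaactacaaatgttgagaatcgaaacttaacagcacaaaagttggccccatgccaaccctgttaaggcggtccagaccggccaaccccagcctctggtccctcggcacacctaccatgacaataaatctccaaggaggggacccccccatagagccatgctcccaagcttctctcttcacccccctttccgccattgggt
Oasl2, GRCm38.p6 chr5:114896784-114896983, plus strand: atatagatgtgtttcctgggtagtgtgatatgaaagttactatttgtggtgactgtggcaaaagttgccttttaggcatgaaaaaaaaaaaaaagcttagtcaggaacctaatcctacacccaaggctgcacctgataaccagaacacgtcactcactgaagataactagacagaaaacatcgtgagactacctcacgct

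The repeat was found in the promoter windows of Oas3, Oas1a, Oas1g and Oas1c, 4 of 6, against 8.56% of the 32851 promoter windows of the table. In each of the 4 it occurred as overlapping copies. Its first base lay 75 bases before the start in Oas3, 20 in Oas1a, 18 in Oas1g and 113 in Oas1c, where it is read on the other strand. Oas1a and Oas1g share a run of 73 bases that contains it. No other pair of members shared a run above 9 bases. These letters were not in the windows of Oasl1 and Oasl2. The gamma-activated site TTCNNNGAA was found in 1 of 6 windows, that of Oas1a, against 8.3% of all. A kappa B form, GGANNTTCC, lay after the start in Oas1a and Oas1g, 2 of 6 against 4.26%. These are matches of letters, searched on both strands, and no binding was measured.

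Total counts were 2510005 to 8277366 per library. PCR copies were removed by molecular identifier, and reads that fit several places were counted as fractions. A count therefore stands for a molecule only where its reads fit a single place. Fractional counts occurred in 13, 9 and 11 libraries for Oas1a, Oas1g and Oas3. Levels are given in CPM, the count scaled to the library's total. The 7 macrophage markers summed to 8450 to 12848 CPM in all 20 libraries. Marker sums for T cells, B cells, dendritic cells, fibroblasts and airway epithelium were at or under 42 CPM. The 7 neutrophil markers summed to 281 to 332 CPM in PBS, to 143 to 209 and 184 to 265 CPM with RNY1+/+ and RNY1-/- EVFx, both below PBS without overlap, and to 198 to 323 and 239 to 353 CPM with RNY1+/+ and RNY1-/- ProteinFx. Of these markers 3 were at or under 3 counts in every library. The 4 eosinophil markers summed to 7.17 to 13.5 CPM in PBS, 0.801 to 2.46 CPM in the EVFx groups and 12.3 to 21.1 CPM in the ProteinFx groups, with Epx at 0 throughout. Of these 4, 2 were at or under 3 counts in every library, and most of the sum was Ccr3. Ccr3 averaged 8.47 CPM in PBS, 0.918 and 1.5 CPM with RNY1+/+ and RNY1-/- EVFx, and 15.9 and 12.9 CPM with RNY1+/+ and RNY1-/- ProteinFx. The part of these transcripts in the results below was not tested. In bulk RNA, fewer cells of a type and less RNA per cell cannot be told apart. Replicate 3 was the lowest library for all 7 members in PBS, in RNY1+/+ EVFx and in RNY1-/- EVFx, and it had the lowest total count of each of these groups (4372150, 4994483 and 4059987). In RNY1-/- ProteinFx, replicates 1 and 2 were above replicates 3 and 4 for all 7 members, and their total counts were higher too (5293171 and 7149366 against 2510005 and 3855450).

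**Figure D1:**
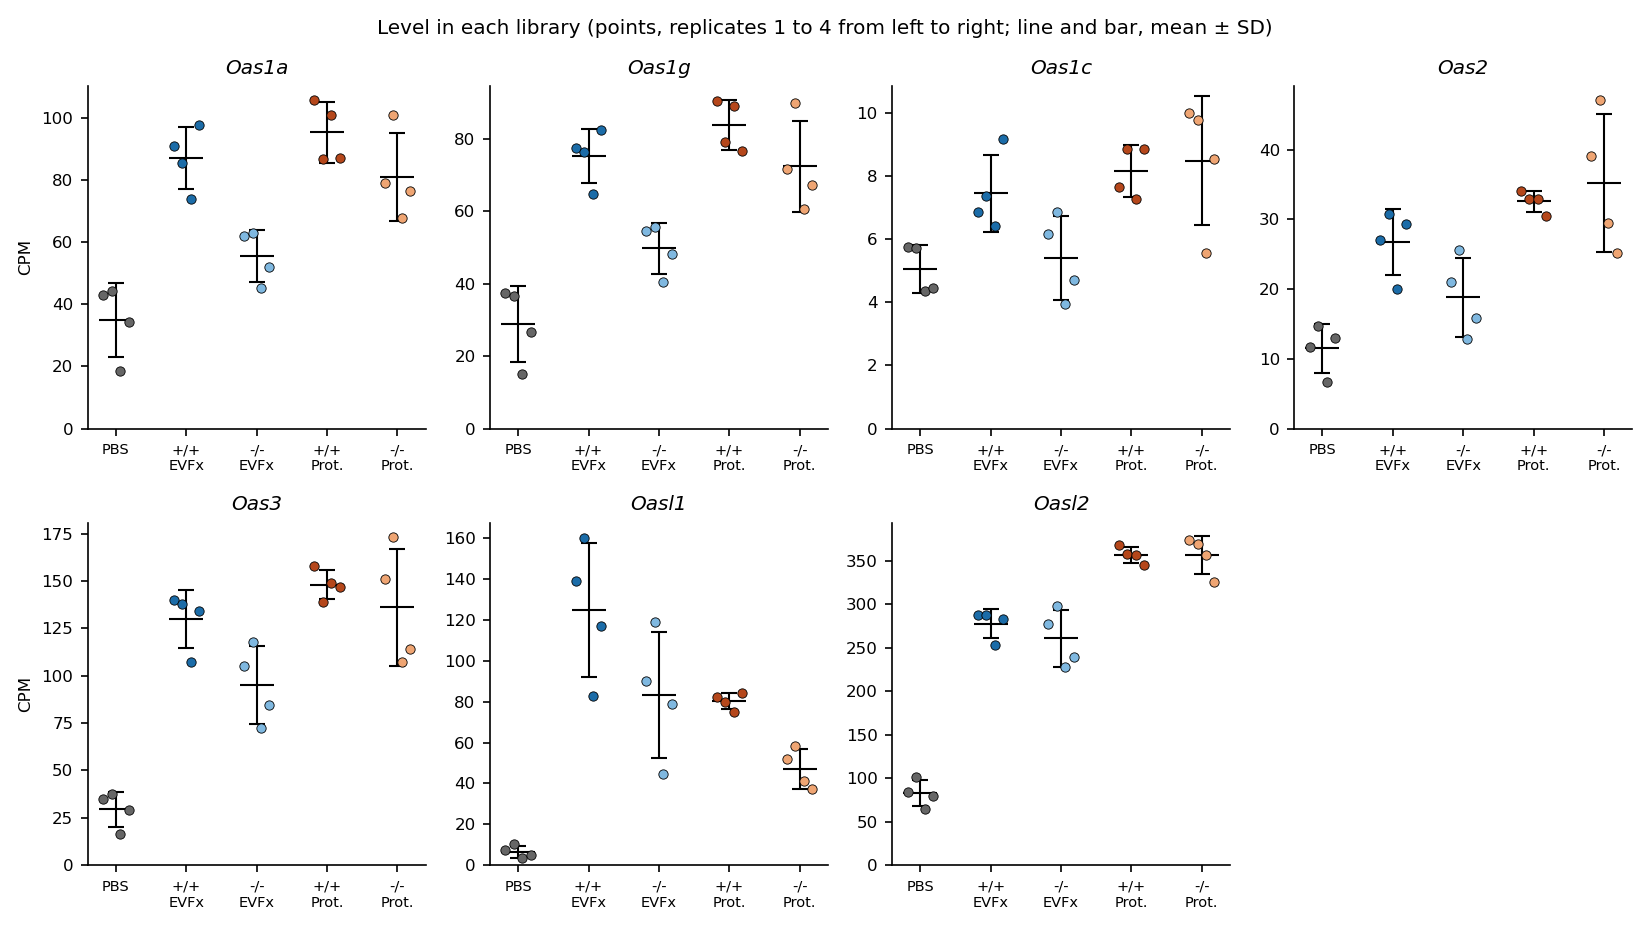
CPM of the 7 members in every library, by treatment (x axis; +/+ and -/- are the RNY1 genotype of the fluid's donors, Prot. is ProteinFx), with the mean and SD of 4 libraries. Each member has its lowest mean in PBS, and for Oasl2 the PBS libraries, at 65.0 to 101 CPM, lie below both EVFx groups and these below both ProteinFx groups.

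Every member was higher, by mean, in each treated group than in PBS. Log2 fold changes come from edgeR's quasi-likelihood test with TMM scaling, with Benjamini-Hochberg adjustment over all genes tested, and a gene is called when its adjusted p is under 0.05 and its log2 fold change is past 1 in size. By this rule 6 of 7 members were called higher with RNY1+/+ EVFx, against 8.24% of all genes, and none lower, against 8.20%. With RNY1+/+ ProteinFx 6 of 7 were called higher and none lower, against 8.96% and 12.4%. With RNY1-/- ProteinFx the count was again 6 of 7 higher and none lower, against 6.31% and 7.99%. RNY1-/- EVFx gave 4 of 7 higher and none lower, against 9.03% and 13.5%. The 4 comparisons share the PBS libraries. Whatever the fold, 7, 6, 7 and 7 members passed the adjusted p with RNY1+/+ EVFx, RNY1-/- EVFx, RNY1+/+ ProteinFx and RNY1-/- ProteinFx, where 44.5%, 58.3%, 55.2% and 35.7% of all genes did. The members' median log2 fold changes, in the same order, were 1.55, 1.02, 1.69 and 1.67, and the median of all genes was -0.03 in each. Without PBS replicate 3, RNY1-/- EVFx gave 3 members called, and the count was 3 to 6 over the 8 libraries left out in turn. In that comparison Oas1a, Oas1g and Oas2 lay close to the fold limit.

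**Figure D2:**
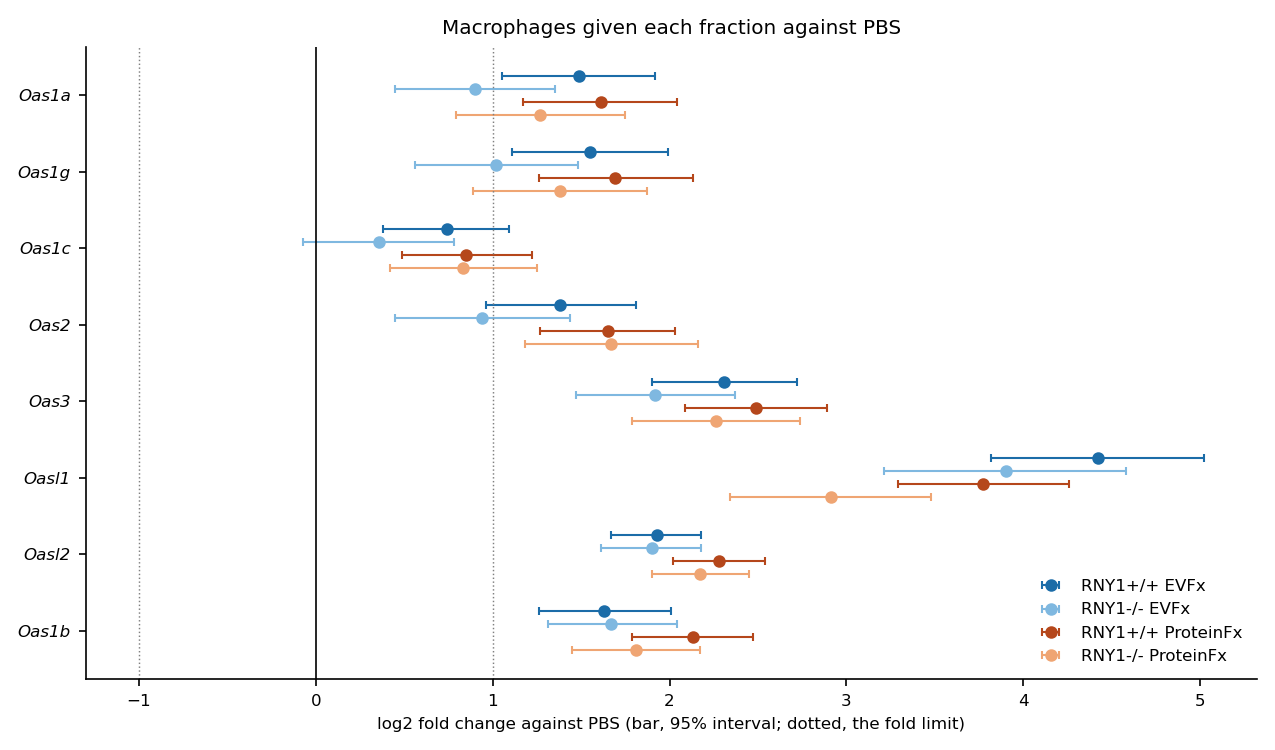
Log2 fold change (x axis) of each member and Oas1b against PBS, a point for each of the 4 treatments with its 95% interval. Oasl1 lies farthest to the right, from 2.91 to 4.42, and Oas1c nearest to 0.

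Oas1a and Oas1g encode the mouse Oas1 synthetases with the best known enzymatic activity, and in these data they were nearly a single measurement. They share 57.6% and 54.1% of the 50-base words of their longest transcripts, reads that fit both were split by the authors' counting, and the Oas1a count was 1.08 to 1.29 times that of Oas1g in all 20 libraries (median 1.14). Their separate values are therefore uncertain. Oas1a was at 43.0, 44.4, 18.4 and 34.3 CPM in PBS replicates 1 to 4 and at 91.2, 85.6, 74.0 and 97.8 CPM with RNY1+/+ EVFx. With RNY1-/- EVFx it was at 62.2, 62.9, 45.4 and 52.0 CPM. No library of either EVFx group reached down to the PBS libraries, and the EVFx groups did not overlap each other. With RNY1+/+ ProteinFx Oas1a was at 106, 86.9, 101 and 87.1 CPM, and with RNY1-/- ProteinFx at 79.2, 101, 67.7 and 76.6 CPM. By mean the order was PBS (35.0 ± 12 CPM, SD, n = 4), RNY1-/- EVFx (55.6 ± 8.43), RNY1-/- ProteinFx (81.1 ± 14.1), RNY1+/+ EVFx (87.2 ± 10.1) and RNY1+/+ ProteinFx (95.4 ± 9.86), and the last 3 overlapped. Against PBS, the log2 fold changes of Oas1a ran from 0.90 (SE 0.23, adjusted p = 0.0059) with RNY1-/- EVFx to 1.61 (SE 0.22, adjusted p = 0.00012) with RNY1+/+ ProteinFx. Oas1g ran from 15 to 37.5 CPM in PBS and from 40.5 to 90.5 CPM over the treated libraries, with log2 fold changes of 1.02 to 1.69 in the same order of treatments. When the counts of all Oas1 entries were summed before the fit, the sum rose by 0.97 to 1.63 on the log2 scale, and with RNY1-/- EVFx it was under the fold limit.

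Oas1c, another Oas1 copy, was at low counts (14 to 76 per library) and shares no 50-base word with Oas1a or Oas1g. It ran from 4.35 to 5.74 CPM in PBS, from 6.41 to 9.18 CPM with RNY1+/+ EVFx and from 3.94 to 6.85 CPM with RNY1-/- EVFx. Only the RNY1+/+ fractions set it apart from PBS without overlap. Its log2 fold changes were 0.74 (SE 0.18, adjusted p = 0.0072) with RNY1+/+ EVFx, 0.85 with RNY1+/+ ProteinFx (SE 0.19, adjusted p = 0.0028) and 0.83 with RNY1-/- ProteinFx (SE 0.21, adjusted p = 0.013), all under the fold limit. With RNY1-/- EVFx it was 0.36, with a 95% interval of -0.07 to 0.78 (adjusted p = 0.18). Of the 5 other Oas1 entries of the table, Oas1d, Oas1f and Oas1h were at 0 in all 20 libraries, which at 3 counts allows up to 0.362 to 1.2 CPM per library, and Oas1e had 1 count in all. Oas1b, the gene at the mouse flavivirus resistance locus, could be tested. It was at 2.87, 3.40, 3.03 and 3.38 CPM in PBS and at 6.41 to 13.8 CPM in the treated libraries, with no overlap. Its log2 fold changes were 1.63, 1.67, 2.13 and 1.81 with RNY1+/+ EVFx, RNY1-/- EVFx, RNY1+/+ ProteinFx and RNY1-/- ProteinFx (adjusted p = 4.8e-05 or less).

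Oas2 was at 11.7, 14.7, 6.63 and 13 CPM in PBS and at 27.1, 30.7, 20.0 and 29.4 CPM with RNY1+/+ EVFx. With RNY1-/- EVFx it was at 21.0, 25.6, 12.8 and 15.8 CPM, of which replicate 3 lay within the PBS range. RNY1+/+ ProteinFx gave the tightest group, at 34.1, 32.9, 32.9 and 30.5 CPM. RNY1-/- ProteinFx gave 39.1 and 47.1 CPM in replicates 1 and 2 and 29.5 and 25.2 CPM in replicates 3 and 4. Log2 fold changes against PBS were 1.38 (SE 0.22, adjusted p = 0.00035), 0.94 (SE 0.25, adjusted p = 0.0078), 1.65 (SE 0.20, adjusted p = 3.7e-05) and 1.67 (SE 0.25, adjusted p = 0.00071) with RNY1+/+ EVFx, RNY1-/- EVFx, RNY1+/+ ProteinFx and RNY1-/- ProteinFx. Taken alone, replicates 1 and 2 of RNY1-/- ProteinFx gave 1.92 and replicates 3 and 4 gave 1.36.

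Oas3, the largest of the synthetase proteins, rose more than the other synthetases against PBS by log2 fold change, in a comparison of fold changes and not of levels. It was at 34.8, 37.5, 16.5 and 28.8 CPM in PBS, at 140, 138, 107 and 134 CPM with RNY1+/+ EVFx and at 105, 118, 72.5 and 84.5 CPM with RNY1-/- EVFx. RNY1+/+ ProteinFx gave 158, 139, 149 and 147 CPM and RNY1-/- ProteinFx 151, 173, 107 and 114 CPM. The lowest treated library was above the highest PBS library. Folds were 4.96, 3.79, 5.62 and 4.80 with RNY1+/+ EVFx, RNY1-/- EVFx, RNY1+/+ ProteinFx and RNY1-/- ProteinFx, or 2.31, 1.92, 2.49 and 2.26 on the log2 scale (SE 0.20 to 0.24, adjusted p = 6.8e-05 or less). The differences in fold change between members were not tested.

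Oasl1, which has lost synthetase activity and is known to hold back translation of Irf7, had the largest fold changes among the members in every treatment. It was low in PBS, at 7.38, 10.4, 3.20 and 4.80 CPM (14 to 67 counts). It reached 139, 160, 82.9 and 117 CPM with RNY1+/+ EVFx and 90.0, 119, 44.6 and 78.9 CPM with RNY1-/- EVFx. The ProteinFx groups were at 82.3, 79.8, 74.9 and 84.5 CPM (RNY1+/+) and 52.0, 58.2, 41.0 and 37.3 CPM (RNY1-/-). It was the only member with a lower mean in both ProteinFx groups than in the EVFx group of the same genotype. Folds against PBS were 21.4 with RNY1+/+ EVFx, 14.9 with RNY1-/- EVFx, 13.7 with RNY1+/+ ProteinFx and 7.50 with RNY1-/- ProteinFx. On the log2 scale these were 4.42 (SE 0.31), 3.90 (SE 0.35), 3.77 (SE 0.25) and 2.91 (SE 0.29), with adjusted p = 4.1e-05 or less.

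Oasl2 encodes an OAS-like protein that keeps synthetase activity in mice. It was at 84.6, 101, 65.0 and 79.7 CPM in PBS and at 288, 288, 253 and 283 CPM with RNY1+/+ EVFx. RNY1-/- EVFx gave 278, 298, 228 and 239 CPM, RNY1+/+ ProteinFx 369, 358, 357 and 345 CPM and RNY1-/- ProteinFx 374, 370, 357 and 326 CPM. The levels thus formed 3 steps, PBS, both EVFx groups and both ProteinFx groups, without overlap between steps and with overlap between genotypes inside a step. Folds against PBS were 3.80, 3.72, 4.85 and 4.51 with RNY1+/+ EVFx, RNY1-/- EVFx, RNY1+/+ ProteinFx and RNY1-/- ProteinFx (adjusted p = 1.6e-06 or less).

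Of 3 other genes of the oligoadenylate pathway, none was past the fold limit in any comparison with PBS. Abce1, a ribosome recycling factor, averaged 54.4 CPM in PBS and 67.7 to 78.0 CPM in the treated groups, with log2 fold changes of 0.49, 0.76 and 0.67 with RNY1+/+ EVFx, RNY1-/- EVFx and RNY1+/+ ProteinFx (adjusted p = 0.013, 0.00069 and 0.0018) and 0.53 with RNY1-/- ProteinFx (adjusted p = 0.062). Pde12, a phosphodiesterase that degrades oligoadenylate, rose by 0.70 with RNY1-/- EVFx and by 0.57 with RNY1+/+ ProteinFx (adjusted p = 0.00085 and 0.0034). Akap7, whose protein holds a phosphodiesterase domain of this kind, fell by 0.53 with RNY1+/+ EVFx (adjusted p = 0.023) and did not pass the test in the other treatments.

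Against PBS, other sensors of nucleic acid rose as the synthetases did, and so did Adar, which is listed with them. Of 8 symbols listed 7 had an entry of their own, and all 7 passed the adjusted p upward in each treatment. In either direction 44.5%, 58.3%, 55.2% and 35.7% of all genes passed with RNY1+/+ EVFx, RNY1-/- EVFx, RNY1+/+ ProteinFx and RNY1-/- ProteinFx. In that order 6, 6, 7 and 5 of the 7 were called higher, against 8.24%, 9.03%, 8.96% and 6.31% of all genes. Eif2ak2, the double-stranded RNA-activated kinase PKR, rose by 1.21 to 1.71 on the log2 scale. Adar, which edits double-stranded RNA, rose by 0.85 to 1.20. Ifih1 (MDA5) rose by 2.25 to 3.16 and Rigi (RIG-I) by 2.23 to 2.82. In the list of 6 interferon signalling genes, 5 were tested and 2 were called higher in each treatment, against the same shares of all genes. Their median log2 fold changes over the 5 were 0.38, 0.50, 0.92 and 0.44. Ifnb1, interferon beta, had no more than 5 counts in any library and was not tested. Ifnar1 and Ifnar2 encode the type I interferon receptor. Ifnar1 rose by 0.38 to 0.92 (adjusted p = 0.02 or less), and Ifnar2 stayed under the threshold, at 0.06 to 0.28. Irf7, an interferon regulatory factor that is itself induced by interferon, rose by 2.01 to 2.49. Irf3, named after its values were seen as the list's only gene that fell, was at -0.62 with RNY1-/- EVFx and -0.72 with RNY1+/+ ProteinFx (adjusted p = 0.0057 and 0.0017).

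**Figure D3:**
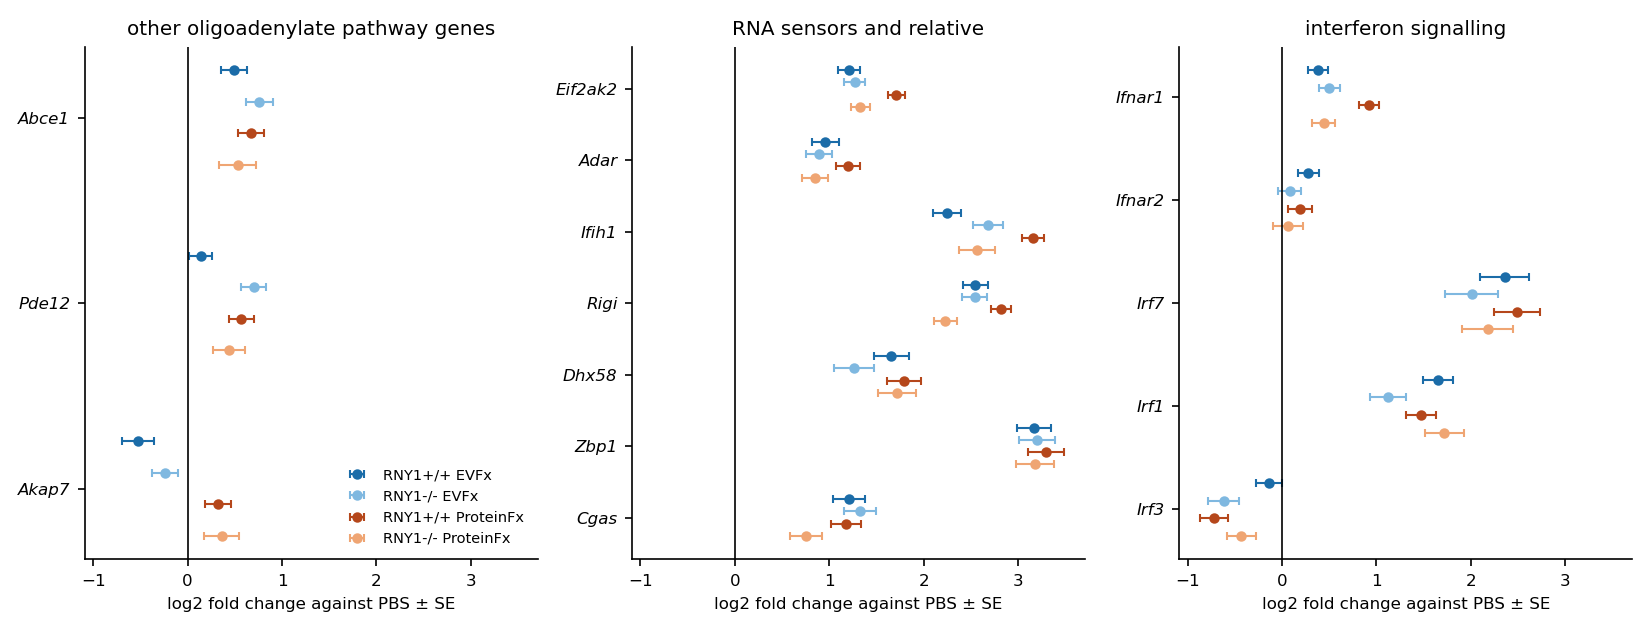
Log2 fold change against PBS (x axis, with SE) of the tested genes of 3 lists, a point for each of the 4 treatments. The 7 tested genes of the sensor list, Adar among them, lie right of 0 in all treatments. Among the signalling genes Irf3 lies left of 0.

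The next comparisons ask whether the genotype of the fluid's donors mattered. With EVFx, no member was called (of all genes 0.378% were called higher and 1.98% lower). At an unadjusted p under 0.05 there were 5 members, all lower with RNY1-/- EVFx, and DESeq2 also called none. By adjusted p alone 52.1% of all genes passed in either direction, and the share of all genes that passed lower is not given. Of the members a smaller share than 52.1% passed in either direction, 3 of 7, all of them lower. These were Oas1a (log2 fold change -0.57, SE 0.11, adjusted p = 0.0011), Oas1g (-0.52, SE 0.10, adjusted p = 0.0013) and Oas3 (-0.38, SE 0.13, adjusted p = 0.026). Only Oas1a and Oas1g, which are nearly a single measurement, were without overlap between groups. The share of all genes without overlap was not computed. Oas3 no longer passed the adjusted p, at -0.27 to -0.37, without RNY1-/- EVFx replicate 3 or 4 or RNY1+/+ EVFx replicate 1 or 2. Oas2 and Oasl1 passed without RNY1-/- EVFx replicate 2 (-0.59 and -0.71, adjusted p = 0.014 and 0.023) and without RNY1+/+ EVFx replicate 3 (-0.54 and -0.67, adjusted p = 0.017 and 0.023). Oasl2 did not pass, at -0.02, and the 95% interval of its difference was -0.19 to 0.14. Fold changes in this comparison fell with the GC content of genes (Spearman's rho -0.65 over 10019 genes, and genes do not stand for independent samples), and the members' transcripts have a GC content of 49.4% to 56.3%. With trends of length and GC content removed per library, Oas1a was at -0.32 (adjusted p = 0.016) and Oas1g at -0.29 (adjusted p = 0.021), while Oas3 moved to -0.06 (adjusted p = 0.7) and Oasl1 from -0.51 (adjusted p = 0.083) to -0.05 (adjusted p = 0.87). Such a GC trend was not particular to this comparison. Against PBS rho was -0.09, -0.42, -0.46 and -0.49 with RNY1+/+ EVFx, RNY1-/- EVFx, RNY1+/+ ProteinFx and RNY1-/- ProteinFx. Between genotypes in ProteinFx it was 0.16, between fractions of RNY1+/+ and RNY1-/- fluid -0.49 and 0.07, and for the interaction of genotype and fraction 0.59.

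With ProteinFx, Oasl1 was lower with fluid of RNY1-/- donors, and by TMM scaling over all 8 libraries it was the only member that passed the adjusted p (1 of 7, where 5.57% of all genes passed). Its log2 fold change was -0.85 (SE 0.13, adjusted p = 0.0022), or 1.80-fold lower, without overlap. No member was past the fold limit, by edgeR or DESeq2 (of all genes 0.659% were called higher and 1.17% lower), and 3 were lower at an unadjusted p under 0.05. The Oasl1 difference was -0.91 (adjusted p = 0.00011) with length and GC trends removed. Measured with replicates 1 and 2 of RNY1-/- ProteinFx alone it was -0.68 (adjusted p = 0.00067), and with replicates 3 and 4 alone -1.08 (adjusted p = 0.00028). Oas1a and Oas1g were at -0.31 and -0.29 (adjusted p = 0.18 and 0.2). They passed at -0.36 and -0.34 (adjusted p = 0.041 and 0.042) with length and GC trends removed. With replicates 3 and 4 of RNY1-/- ProteinFx alone Oas1a, Oas1g and Oas3 passed, at -0.43, -0.42 and -0.46 (adjusted p = 0.045, 0.04 and 0.014), and with replicates 1 and 2 alone these were at -0.21, -0.18 and -0.01 (adjusted p = 0.2, 0.24 and 0.95). With all libraries Oas3 was at -0.21, with a 95% interval of -0.47 to 0.05, and Oas2 at 0.04, with an interval of -0.27 to 0.36. These intervals bound the differences only approximately and do not show that the levels are alike.

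**Figure D4:**
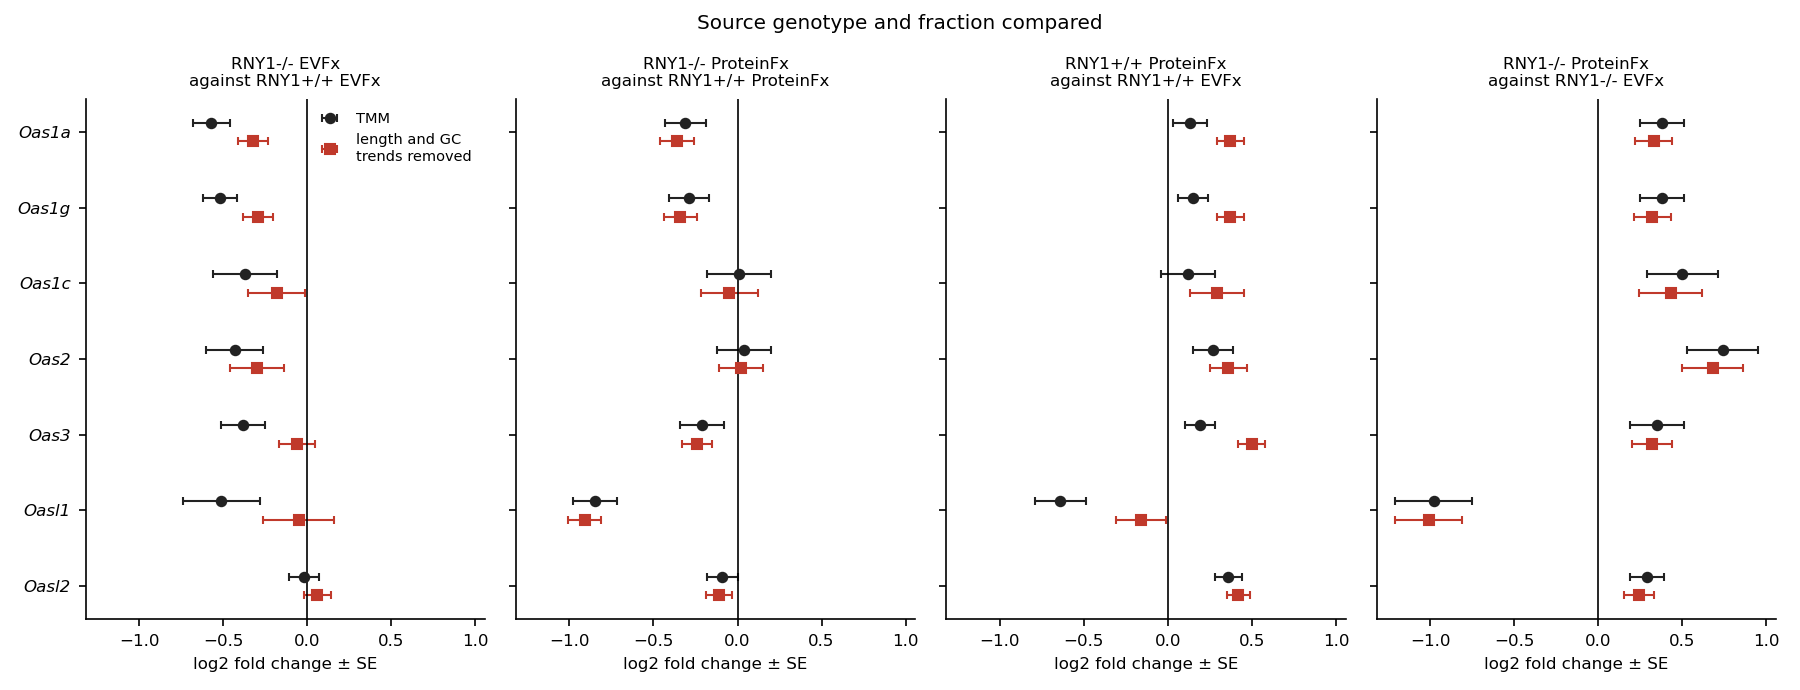
Log2 fold change (x axis, with SE) of the members between source genotypes in each fraction and between fractions of each genotype, by TMM scaling (circles) and with length and GC trends removed (squares). Oasl1 moves from -0.51 to -0.05 in the EVFx genotype comparison and stays near -0.85 in the ProteinFx comparison.

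An interaction term over 16 libraries tested whether the genotype effect depended on the fraction. Of the 7 members 0 passed the adjusted p by edgeR, 0 at an unadjusted p under 0.05 and 0 by DESeq2, where 33.0% of all genes passed. Estimates ran from -0.34 for Oasl1, with a 95% interval of -0.94 to 0.26, to 0.47 for Oas2, with an interval of -0.02 to 0.97. With length and GC trends removed, Oasl1 was at -0.83 (adjusted p = 0.037). With replicates 1 and 2 of RNY1-/- ProteinFx alone, Oas2 was at 0.71 (adjusted p = 0.015). The 7 tested genes of the sensor list gave other counts than the members. Between genotypes in ProteinFx 4 passed the adjusted p, all lower, where 5.57% of all genes passed. In the interaction 4 passed, all below 0, with Ifih1 at -1.03 (adjusted p = 0.0046). Between genotypes in EVFx 1 was lower and 1 higher, Ifih1 at 0.44 (adjusted p = 0.016), where 52.1% of all genes passed.

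Between the fractions of RNY1+/+ fluid, the OAS-like genes moved in opposite directions. Oasl1 was lower with ProteinFx than with EVFx, with a log2 fold change of -0.64 (SE 0.15, adjusted p = 0.0017), and Oasl2 was higher by 0.36 (SE 0.08, adjusted p = 0.00081). These 2 of 7 passed the adjusted p, where 63.3% of all genes did. None was past the fold limit by edgeR or DESeq2 (of all genes 6.71% were called higher and 6.82% lower), and 3 members had an unadjusted p under 0.05. With length and GC trends removed, the Oasl1 difference was -0.16 (adjusted p = 0.39) and that of Oasl2 0.42 (adjusted p = 0.00013). Oas1a, Oas1g, Oas2 and Oas3 then also passed, at 0.37, 0.37, 0.36 and 0.50 (adjusted p = 0.01 or less), against 0.13, 0.15, 0.27 and 0.19 by TMM. Oas2 passed at 0.33 (adjusted p = 0.041) without RNY1+/+ EVFx replicate 2.

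Between the fractions of RNY1-/- fluid, Oasl1 was again lower with ProteinFx, with a log2 fold change of -0.98 (SE 0.23, adjusted p = 0.007), and at -1.01 with length and GC trends removed. Oas2 was higher by 0.74 (SE 0.21, adjusted p = 0.019), Oas1a and Oas1g by 0.38 each (SE 0.13, adjusted p = 0.046). These 4 of 7 passed the adjusted p, where 29.2% of all genes did. With the replicate number as a block all 7 passed, where 3703 of 10416 genes did. Oas1c was then at 0.48, Oas3 at 0.35 and Oasl2 at 0.30 (adjusted p = 0.045, 0.0094 and 0.036). None was past the fold limit by edgeR or DESeq2 (of all genes 4.98% were called higher and 4.05% lower), and 6 members had an unadjusted p under 0.05. Oas1a and Oas1g no longer passed the adjusted p when any of 7 of the 8 libraries was left out, all but RNY1-/- ProteinFx replicate 3. In these 7 fits Oas1a was at 0.28 to 0.44 and Oas1g at 0.28 to 0.43. Oas2 was at 0.39 (adjusted p = 0.22) with replicates 3 and 4 of RNY1-/- ProteinFx alone, at 0.58 (adjusted p = 0.068) without replicate 2 of that group and at 0.68 (adjusted p = 0.065) without RNY1-/- EVFx replicate 4. Oas1c passed the adjusted p at 0.60 (adjusted p = 0.035) without RNY1-/- ProteinFx replicate 3, and Oasl2 at 0.35 (adjusted p = 0.045) without RNY1-/- EVFx replicate 2. Oasl1 passed the fold limit without RNY1-/- EVFx replicate 3 or RNY1-/- ProteinFx replicate 1 or 2.

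The root mean square difference between centred log2 CPM of a pair of genes over the 20 libraries was 0.06 for Oas1a and Oas1g, 0.23 for Oas3 and Oasl2 and 0.24 for Oas2 with either of Oas1a and Oas1g. Oas1c differed from Oas1a, Oas1g and Oas2 by 0.39 to 0.42, from Oasl2 by 0.62 and from Oas3 by 0.69. The remaining pairs without Oasl1 were at 0.34 to 0.39, and Oasl1 differed from every other member by 0.81 to 1.40. Over 7545 genes of at least 10 CPM, the gene most like Oas1a, Oas1g and Oas2 was Psmb10, an immunoproteasome subunit (0.14, 0.13 and 0.17). The RNA sensor relative Dhx58 (LGP2) was among the 3 nearest genes of Oas1g (0.15) and Oas2 (0.20). Oas3 was closest to Irf7, the interferon regulatory factor of the late interferon response (0.12), followed by Helz2 (0.16) and Tor3a (0.18). Oasl2 was closest to Nlrc5, the activator of MHC class I genes (0.14), Parp12 (0.15) and Rnf19b (0.15). Oasl1 was closest to Isg15, a ubiquitin-like modifier induced by interferon (0.21), and then, at 0.34 each, to complement factor B (Cfb) and Gm20547. Oas1c, with its small changes, was nearest to Rars1 (0.19), Stat3 (0.20) and Ist1 (0.20). These are descriptions over libraries that share 5 treatments.

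When libraries were scaled by total counts and not by TMM, the median of all genes moved by -0.18, -0.24 and -0.17 on the log2 scale against PBS with RNY1+/+ EVFx, RNY1-/- EVFx and RNY1+/+ ProteinFx, and by 0.17 for RNY1-/- ProteinFx against RNY1-/- EVFx and for the interaction. The shares of all genes called higher and lower shifted with it, from 890 higher and 885 lower to 735 and 1235 with RNY1+/+ EVFx, from 969 and 1449 to 697 and 2147 with RNY1-/- EVFx and from 971 and 1342 to 773 and 1853 with RNY1+/+ ProteinFx. Between genotypes in ProteinFx 69 and 122 became 101 and 99, between fractions of RNY1-/- fluid 519 and 422 became 710 and 320, and for the interaction 1754 and 1695 became 2580 and 923. With length and GC trends removed, 39 higher and 204 lower became 60 and 36 between genotypes in EVFx, and 685 and 867 became 599 and 441 for RNY1-/- ProteinFx against PBS. Every member stayed above 0 against PBS under each of these scalings.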

How the data were processed

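Gene-level values of 20 BMDM libraries, 4 in each of 5 groups, were used, matched to groups by library name. Per the labels and the study's methods, the authors had reads trimmed by fastp 0.24.0 and aligned to GRCm39 by STAR 2.7.11, with duplicates removed by molecular identifier and strand-specific reads counted on exons and 3′ untranslated regions with featureCounts (Subread 2.1.1), where reads that fit several places are shared as fractions. The annotation release is not given in the sources used here. The authors deposited these expected counts without normalization, and deposited CPM, the count over the library's total, which was checked on the values. Of the entries, 92 were spike-in controls (0.0014% of counts) and were left out.

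Expected counts were rounded to whole numbers. Each comparison used the 8 libraries of its 2 groups, and the interaction 16. Genes were kept if they passed filterByExpr with a mean CPM of 3 or more, and tested with edgeR 4.0.16 (TMM scaling, glmQLFit, glmQLFTest) with Benjamini-Hochberg adjustment over all genes tested. Calls needed an adjusted p under 0.05 and, except for the interaction, a log2 fold change past 1 in size. SEs are the log2 fold change divided by the root of F, and 95% intervals are 1.96 SE to either side. That normal quantile takes no account of the few degrees of freedom, so the intervals are approximate and on the narrow side. The tests were tried on simulated counts first. Members and gene lists were chosen with earlier results of these data known. All 7 members are named, with values for up to 4 genes of each list in written order, and for the 3 genes nearest to each member by root mean square difference of centred log2 CPM among genes of at least 10 CPM. Lists were the other Oas1 entries, other genes of the oligoadenylate pathway, nucleic acid sensors with Adar, interferon signalling, and markers of macrophages and 7 other cell types. Some genes of these lists are not reported here and were left out of the counts. GENCODE transcripts of GRCm38 gave lengths, GC contents and 50-base words, and RefSeq gave promoters (GRCm38.p6). Length and GC trends were removed within each library by natural splines (4 degrees of freedom).

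Same-numbered libraries were checked for shared deviations from their group means. The rule for pairs, that every correlation be over 0.1, comes from the data and not from the labels. It was met only for RNY1-/- EVFx against PBS (0.14, 0.38, 0.24 and 0.13) and RNY1-/- ProteinFx against RNY1-/- EVFx (0.22, 0.40, 0.29 and 0.27). RNY1-/- ProteinFx against PBS did not meet it (0.51, 0.62, 0.64 and 0.02). These correlations do not show that the libraries are pairs, and the main fits used no pairing. Alternatives were total counts, DESeq2 1.42.0, other filters, all 20 libraries in a single fit, the replicate block, no fold limit, summed Oas1 entries, rounding down, length and GC trends, and leaving out each library. Fits with only replicates 1 and 2, or 3 and 4, of RNY1-/- ProteinFx were added after the data were seen. R 4.3.3 and python 3.11.15 were used.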

Additional observations from a re-analysis of the deposited data

Results flagged for a closer look

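Each group of 4 libraries was examined for a library far from the others, by Dixon's ratio, for the 7 members. Of the 35 groups, 1 held such a library, and chance gives about 1 in 20. Oasl2 in RNY1+/+ EVFx replicate 3 was at 253 CPM, where the other libraries of the group were at 283 to 288 CPM. Replicate 3 was the lowest library of this group for the other 6 members too. What set it apart was not tested. No member passed the test of a genotype effect that differs between the fractions.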

How the results depend on the processing

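Against PBS, 6 of 7 members stayed called with RNY1+/+ EVFx, RNY1+/+ ProteinFx and RNY1-/- ProteinFx under the settings that keep Oas1 entries apart and the fold limit on. With RNY1-/- EVFx the count of 4 was 3 with total counts or all 20 libraries, 6 with length and GC trends removed and 3 to 6 with a library left out. Of all genes, 697 of 10727, 983 of 10637 and 884 of 10390 were called higher with total counts, all 20 libraries and trends removed. Without the fold limit, 3 members passed between genotypes in EVFx, 1 in ProteinFx, 2 between fractions of RNY1+/+ fluid and 4 of RNY1-/- fluid. In the last comparison 1 member, Oasl1, passed the fold limit with trends removed, with no filter on low counts, with only replicates 3 and 4 of RNY1-/- ProteinFx, and in 3 of the 8 fits that leave out a library (range 0 to 1). Of all genes, 882 of 10085, 1539 of 27561 and 971 of 10287 were called with trends removed, with no filter and with only replicates 3 and 4. Oasl1 alone, 1 member, also passed the fold limit between genotypes in ProteinFx with only replicates 3 and 4, where 180 of 10390 genes were called. In the interaction 1 member passed with trends removed (Oasl1), with no filter (Oas2) and with only replicates 1 and 2 of RNY1-/- ProteinFx (Oas2). Of all genes, 2141 of 10119, 3555 of 30857 and 5664 of 10430 passed in these settings, so the members do not stand out by count. The cause of these changes was not tested, and fits on fewer libraries also have fewer degrees of freedom.

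With the replicate number as a block, the counts of members called were unchanged at 6, 4, 6 and 6 against PBS and at 0 elsewhere. In the comparisons that did not meet the correlation rule for pairs, the block brought Oas2 and Oasl1 past the adjusted p between genotypes in EVFx (-0.45 and -0.54). There 5575 of 10320 genes passed. It also brought Oas2 past it between fractions of RNY1+/+ fluid (0.28), where 6582 of 10443 genes passed. No other member gained or lost the adjusted p with the block in these comparisons.

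Directions turned only for differences that had not passed the threshold. With trends removed, Oasl2 was at 0.06 between genotypes in EVFx, Oas1c at -0.05 between genotypes in ProteinFx, and Oas1a, Oas1g and Oas3 at -0.02, -0.02 and -0.16 in the interaction. With only replicates 3 and 4 of RNY1-/- ProteinFx, Oas1c was at -0.20 and Oas2 at -0.30 between genotypes in ProteinFx, and Oas3 at -0.07 in the interaction. Oas1c was at -0.02 between genotypes in ProteinFx under the replicate block. In the interaction Oasl2 was at 0.01 with no filter and at 0.09 with total counts. Leaving out a library gave -0.08 to 0.04 for Oasl2 between genotypes in EVFx, and -0.05 to 0.11 for Oas1c and -0.12 to 0.16 for Oas2 between genotypes in ProteinFx. The cause of these turns was not tested.
Counts per library limit Oas1c most, at 14 to 76, and Oasl1 in PBS, at 14 to 67. Of 614 log2 fold changes refitted under the other settings, 33 gained and 12 lost the adjusted p, and of 560 with a library left out 7 gained and 20 lost it. Oas2 between genotypes in EVFx gained it, at -0.43 to -0.49, also with DESeq2, total counts, no filter and counts rounded down.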
